A study of Mus musculus with 14 samples.

Results

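The Nrf2 antioxidant response was followed through 10 of its genes in 12 RNA-seq libraries of transplanted mouse gastric tumours. The genes were chosen by symbol from the 24421 entries of the deposited count tables, and all 10 of 10 were found and passed the filter on low counts in every comparison. They comprise the transcription factor Nfe2l2, its inhibitor Keap1, and Gclc, Gclm, Slc7a11, Gpx2, Txnrd1, Srxn1, Nqo1 and Hmox1. There were 4 groups with 3 libraries each. TM, TMP and TMPC tumours had grown under the skin (subcutaneous), and a further TMPC group had grown in the organ of origin (orthotopic). The labels use TM, TMP and TMPC without spelling out the alleles, strain, age or cells behind them, so these are names only. Polyadenylated RNA came from tumour pieces of about 1 cm3, taken 2 months after transplantation. The labels do not tie replicates to different animals, so the p-values rest on the spread among libraries, part of which may be technical.

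Nrf2, the protein of Nfe2l2, is held in the cytoplasm by Keap1, which passes it to a ubiquitin ligase for breakdown. When oxidants or reactive chemicals modify cysteines of Keap1, Nrf2 escapes, pairs with a small Maf protein in the nucleus and switches on genes that carry an antioxidant response element. These genes make glutathione, reduce thioredoxin and peroxides, detoxify quinones and break down haem. Gpx2 is the glutathione peroxidase of gut and stomach epithelium.

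The members did not move as 1 group. Txnrd1 was higher in both TMP and TMPC than in TM tumours, by 0.99 and 1.34 on the log2 scale, and lower in orthotopic than in subcutaneous TMPC tumours. Nqo1 was highest in the orthotopic tumours, at 103 ± 42.7 CPM (SD, n = 3) against 16.9 ± 8.75 in subcutaneous TMPC, where CPM is counts scaled by library size and TMM factors. Slc7a11 was higher in TMP than in TM. Gpx2 ranged from 0 to 554 CPM and passed no test, and Keap1, Gclc, Gclm and Srxn1 stayed within 2.61-fold over the 12 libraries.

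**Figure D1:**
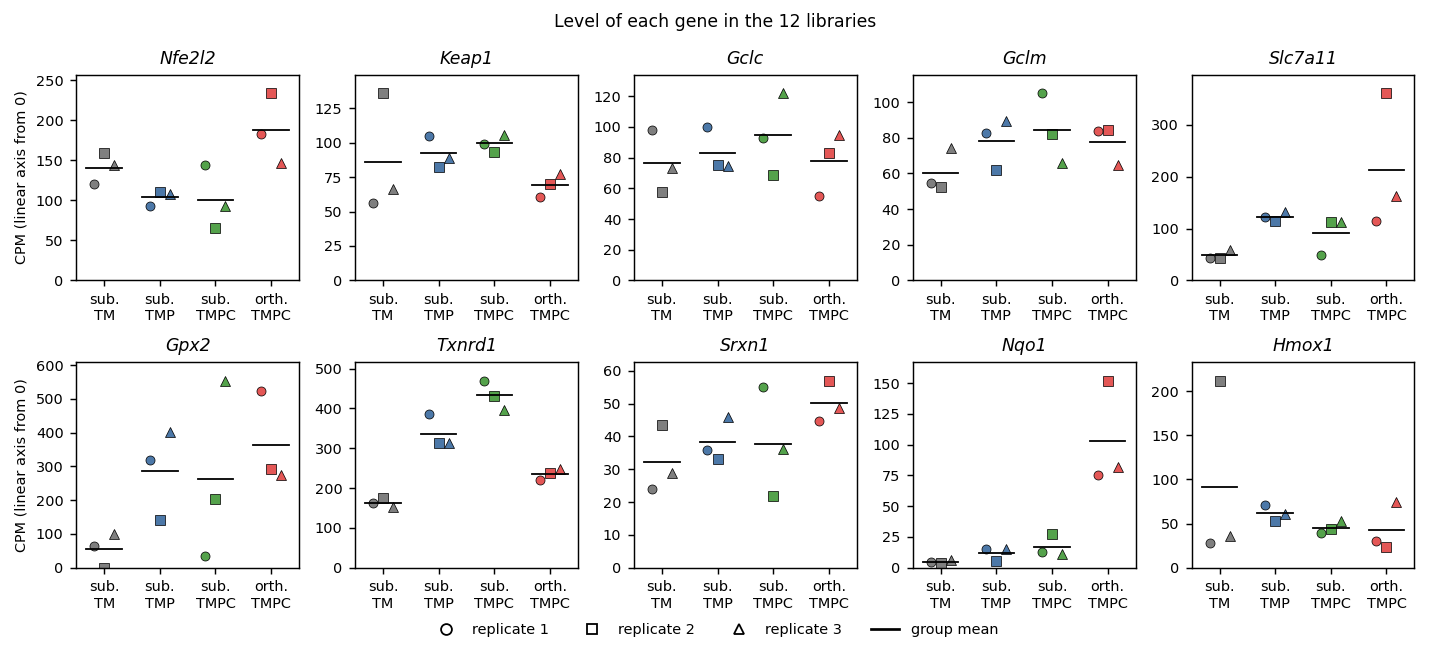
Level of each member in every library, in CPM on a linear axis from 0, by group (sub., subcutaneous; orth., orthotopic); symbols stand for replicates and bars for group means of 3 libraries. Txnrd1 forms tight groups, Nqo1 stands at 75.1 CPM or more in the orthotopic group only, and single libraries lie far from their group for Gpx2, Keap1 and Hmox1.

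In epithelial, liver or pancreas markers 3 libraries stood apart. Replicate 2 of TM had Epcam, an epithelial surface marker, at 53.2 CPM against 460 and 532 in the rest of its group, and 10 epithelial markers summed to 274 CPM against 4794 and 5148. Its macrophage and monocyte markers summed to 7142 CPM, and its count over Y-linked genes was 0, against 493 or more in each other library. Its B and plasma cell markers summed to 2747 CPM, against 4.43 and 7.76 in the rest of its group. T and NK cell markers summed to 197 CPM there, against 7.14 and 11. How much tumour this library held was not tested, and it was kept in the TM group unless stated. Replicate 1 of subcutaneous TMPC had Epcam at 116 CPM and an epithelial sum of 1248. Replicate 3 of orthotopic TMPC held the liver transcript Alb at 3039 CPM. Its pancreas markers summed to 128 CPM, against at most 18.8 in any other library. Neutrophil markers summed to 769 CPM there, against 16.1 and 16.6 in the rest of its group. Skeletal muscle markers summed to 155 CPM in replicate 2 of TMP, against 8.9 and 1.37 in the rest of its group. They summed to 18.1, 175 and 113 CPM in subcutaneous TMPC and 0.521, 1.66 and 0.451 CPM in TM. In orthotopic TMPC they summed to 5.96, 2.4 and 2.99 CPM. The part of muscle in the levels of the members was not tested. The TM group also had Xist at 189 to 1435 CPM against at most 13.4 elsewhere, so that a difference in host or donor sex and the TM label cannot be told apart. In bulk tissue, fewer cells of a type and less RNA per cell cannot be told apart either.

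The proximal promoters of the members differed in whether they held the core of the antioxidant response element. It was searched as TGACNNNGC on both strands of the 300 bases from 250 before to 50 after each RefSeq start (build GRCm38.p6). The table held 10 promoters for 8 of the 10 members, with Gclc and Hmox1 not among them. The core was found for Nfe2l2, Srxn1, Gclm and 1 of the 3 starts of Txnrd1, or 4 of 10 promoters, against 12.4% of all 32851. The windows are shown because they tie the searched letters to the genes measured here, with the core in capitals and, for Srxn1, the related AP-1 site TGANTCA. The core of Srxn1 lies after its start and is not printed. In Gclm and Txnrd1 the core lies on the opposite strand and so reads GCNNNGTCA.
Nfe2l2, chr2:75704865-75704913, minus strand, core from base -240: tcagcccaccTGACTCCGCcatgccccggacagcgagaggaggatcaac
Gclm, chr3:122245393-122245461, plus strand, core from base -134: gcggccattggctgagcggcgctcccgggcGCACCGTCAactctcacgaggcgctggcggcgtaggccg
Txnrd1, chr10:82859084-82859152, plus strand, core from base -92: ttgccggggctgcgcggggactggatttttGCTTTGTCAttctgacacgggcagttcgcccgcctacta
Srxn1, chr2:152105392-152105458, plus strand, AP-1 from base -102: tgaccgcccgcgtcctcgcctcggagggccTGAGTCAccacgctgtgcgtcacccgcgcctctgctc
Srxn1, chr2:152105449-152105515, plus strand, AP-1 from base -45: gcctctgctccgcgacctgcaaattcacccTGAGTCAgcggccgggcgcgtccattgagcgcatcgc

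The AP-1 letters stood in 7.81% of all promoters and in no other member's. The AP-1 letters TGANTCA and the core TGACNNNGC share their first bases and can overlap, as they did in none of the windows printed. These letters were not found in the windows of Nqo1, Slc7a11, Keap1 and Gpx2 or at the other starts of Txnrd1, which says only that they are absent from those 300 bases. Among 101 promoters of other genes of the pathway, 20 held the core (19.8%). A match is a description of the sequence and not a measured binding site.

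At most 2 of the 10 members passed an adjusted p under 0.05 in any comparison. In TMP against TM 2 were higher (Slc7a11 and Txnrd1) and 0 lower, which is 20% of the members beside 27.7% of all genes tested, of which 14.3% were higher and 13.4% lower. In TMPC against TM 2 were higher (Txnrd1 and Nqo1) and 0 lower, beside 35.8% of all genes, 18.0% higher and 17.8% lower. In orthotopic against subcutaneous TMPC 1 was higher (Nqo1) and 1 lower (Txnrd1), beside 27.8% of all genes, 14.0% higher and 13.8% lower. The members' share rests on 2 genes of 10 in each of these comparisons and was not tested against that of all genes. In TMPC against TMP 0 members passed, nor did any gene by edgeR (0% of 15277, with 465 at an unadjusted p under 0.05), while DESeq2 called 8 genes higher and 9 lower. The comparisons of TMP and of TMPC with TM share the TM libraries, and the subcutaneous TMPC libraries are a side of all but that of TMP with TM. They also entered the fit of that comparison, which held all 9 subcutaneous libraries. The members' median log2 fold change was 0.25 for TMP against TM, 0.34 for TMPC against TM, 0.04 for TMPC against TMP and 0.23 between the sites. Over all genes tested it was -0.07, -0.07, 0.01 and 0.05. Calls over all genes moved when 1 library was left out. In TMP against TM they went from 2188 higher and 2051 lower of 15277 to 2514 and 2371 of 15668 without TM replicate 2. In TMPC against TM the 2748 and 2721 became 3238 and 3152 without it, and 2654 and 2075 of 15761 without TMPC replicate 1. Between the sites 2118 and 2086 of 15123 became 1680 and 1830 of 15801 without TMPC replicate 1. Without orthotopic replicate 3 they became 2591 and 2198 of 15663.

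The CPM ranges of TMP and TM did not overlap for 3 members that were higher (28.2% of all genes) and 1 that was lower (22.5%), in all 50.6% of genes. For TMPC and TM this held for 2 higher (25.9%) and 0 lower (21.6%), in all 47.5% of genes. Between TMPC and TMP, Txnrd1 was higher (6.18% of all genes) and Slc7a11 lower (6.28%) without overlap, in all 12.5% of genes. Between the sites 3 members were higher (22.3%) and 2 lower (26.5%) without overlap, in all 48.8% of genes.

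**Figure D2:**
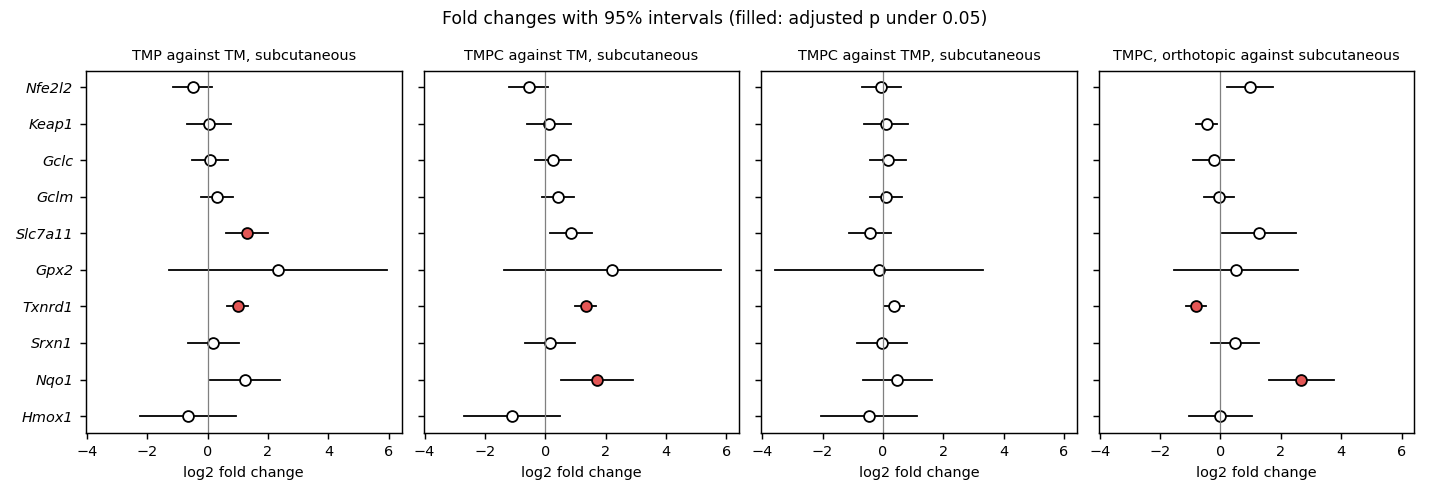
Log2 fold change of each member with its 95% interval in the 4 comparisons, from edgeR; filled points have an adjusted p under 0.05. Txnrd1 is filled in 3 panels and Nqo1 in 2, and the intervals of Gpx2 are the widest among the members.

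Nfe2l2 (chr2:75675513-75704641, minus strand, mm10) encodes Nrf2 itself. Its level was 120, 159 and 144 CPM in TM and 93, 110 and 108 CPM in TMP. It was 144, 65 and 92.7 CPM in subcutaneous TMPC and 183, 234 and 147 CPM in orthotopic TMPC. The TMP libraries lay below all TM libraries, and the orthotopic libraries lay above all subcutaneous TMPC libraries. None of these differences passed the quasi-likelihood test of edgeR after Benjamini-Hochberg adjustment. The log2 fold change was -0.50 ± 0.28 (SE, adjusted p = 0.201) for TMP against TM and -0.55 ± 0.28 (adjusted p = 0.149) for TMPC against TM. For orthotopic against subcutaneous TMPC it was 0.97 ± 0.32 (adjusted p = 0.064). Without the epithelium-poor TMPC replicate 1, Nfe2l2 passed in both of the latter comparisons, at -0.85 ± 0.21 against TM (adjusted p = 0.0242) and 1.30 ± 0.28 between the sites (adjusted p = 0.0334). Of all alternatives run, it passed in 1 of 12 for TMPC against TM and in 3 of 11 between the sites. The highest adjusted p was 0.457 and 0.179, each without TMPC replicate 2. Over these alternatives the log2 fold change ranged from -0.85 to -0.24 against TM and from 0.67 to 1.30 between the sites.

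Keap1 (chr9:21229730-21239361, minus strand) encodes the sensor that marks Nrf2 for breakdown. It stood at 56.5, 136 and 66.7 CPM in TM, 105, 82.2 and 89.3 CPM in TMP, 99.2, 93.1 and 106 CPM in TMPC and 60.6, 69.9 and 77.1 CPM in orthotopic TMPC. The spread within TM came from replicate 2, which was the highest of all 12 libraries, and the orthotopic libraries lay below all subcutaneous TMPC libraries. By edgeR, Keap1 differed from TM by 0.03 ± 0.32 in TMP (adjusted p = 0.95) and 0.13 ± 0.32 in TMPC (adjusted p = 0.767). Without TM replicate 2 both passed, at 0.55 ± 0.16 (adjusted p = 0.0317) and 0.67 ± 0.16 (adjusted p = 0.0122), which was the only 1 of 12 alternatives to pass in each. Between the sites Keap1 changed by -0.46 ± 0.14 on the log2 scale (adjusted p = 0.0542). An annotated antisense transcript covers part of Keap1, and without the use of strand its reads cannot be told from those of Keap1.

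Of 13 other regulators of the pathway, among them the small Maf partners, the Bach repressors and the ligase subunits, 1 was higher and 2 lower in TMP than in TM. In TMPC against TM 2 were higher and 1 lower, and between the sites 1 was higher and 1 lower. These are 23.1%, 23.1% and 15.4% of the list, beside 27.7%, 35.8% and 27.8% of all genes. Mafg, a small Maf that pairs with Nrf2, rose by 0.65 ± 0.16 in TMP (adjusted p = 0.0209) and 0.51 ± 0.16 in TMPC (adjusted p = 0.0368) over TM. Rbx1, a subunit of the ligase that Keap1 serves, was higher in TMPC than in TM by 0.53 ± 0.12 (adjusted p = 0.013) and lower in orthotopic tumours by -0.46 ± 0.13 (adjusted p = 0.0444). The latter call was lost in 5 of 6 fits that left out 1 library, among them that without orthotopic replicate 3 (-0.41 ± 0.14, adjusted p = 0.0777), and those of Mafg in 3 and 4 of 6. Nfe2l1, the close relative of Nfe2l2, did not pass in any comparison, with values of -0.40 ± 0.23, -0.45 ± 0.23 and 0.23 ± 0.16. Nfe2, the blood cell member of the family, was lower in TMP than in TM, at 0.183 against 7.95 CPM (adjusted p = 0.0261, lost without any 1 of the TMP libraries), where TM replicate 2 held 21.5 CPM and the rest of TM 1.2 and 1.13 CPM. The neutrophil markers of that replicate summed to 3486 CPM, against 115 and 179 in the rest of TM, and their part in the result was not tested.

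Gclc (chr9:77754535-77794485, plus strand) and Gclm (chr3:122245557-122270732, plus strand) encode the catalytic and modifier subunits of glutamate-cysteine ligase, which makes the first bond of glutathione. Gclc stood at 97.9, 57.3 and 73.3 CPM in TM, 100, 74.9 and 74.6 CPM in TMP, 92.6, 68.8 and 122 CPM in TMPC and 55.1, 82.8 and 95 CPM in orthotopic TMPC. Gclm stood at 54.6, 52.4 and 74.3 CPM in TM, 82.5, 62 and 89.6 CPM in TMP, 105, 82.3 and 66 CPM in TMPC and 84, 84.3 and 64.7 CPM in orthotopic TMPC. All groups overlapped for both subunits in every comparison. Their 8 log2 fold changes lay between -0.22 ± 0.28 for Gclc between the sites and 0.42 ± 0.23 for Gclm in TMPC against TM. Their lowest adjusted p by edgeR was 0.18. Per kilobase of transcript the mean level over the 12 libraries was 24.2 CPM for Gclc and 22.8 CPM for Gclm.

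Slc7a11 (chr3:49892526-50443614, minus strand) encodes the light chain of the exchanger that brings in cystine, the raw material for glutathione. It stood at 43.5, 42.4 and 58.7 CPM in TM and 123, 115 and 131 CPM in TMP. It stood at 48.8, 113 and 113 CPM in subcutaneous TMPC and 114, 361 and 163 CPM in orthotopic TMPC. All TMP libraries lay above all TM libraries, while TMPC replicate 1 lay within the TM range. Slc7a11 rose by 1.29 ± 0.31 on the log2 scale in TMP against TM (edgeR, adjusted p = 0.0193). This call was lost without TMP replicate 1 (adjusted p = 0.0604) and without TMP replicate 3 (adjusted p = 0.0632), with 1.33 and 1.26.

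In TMPC against TM the log2 fold change of Slc7a11 was 0.86 ± 0.30 (adjusted p = 0.0567), and without TMPC replicate 1 it was 1.21 ± 0.18 (adjusted p = 0.00588). This comparison passed in 2 of 12 alternatives, with values from 0.71 to 1.21. Its highest adjusted p was 0.148, without TMPC replicate 3. Between the sites the ranges of Slc7a11 did not overlap, but replicate 2 of the orthotopic group alone reached 361 CPM, and the difference of 1.28 ± 0.51 did not pass (adjusted p = 0.103). Slc3a2, the heavy chain of the same exchanger, changed by -0.02 ± 0.22, -0.08 ± 0.22 and -0.17 ± 0.16 in the comparisons of TMP with TM, of TMPC with TM and of the sites, and passed in none. Pseudogenes and an antisense transcript overlap the Slc7a11 locus, which leaves its counts uncertain by those reads.

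Of 10 other genes of glutathione synthesis and recycling, 1 was higher and 1 lower in TMP than in TM, and 1 higher and 2 lower in TMPC than in TM. Between the sites 1 was higher and 1 lower. These are 20%, 30% and 20% of the list, beside 27.7%, 35.8% and 27.8% of all genes. Without 1 library these counts moved, as did the calls over all genes given with the members. The counts against TM became 2 higher and 1 lower in both TMP and TMPC without TM replicate 2, and 1 and 1 in TMPC without TMPC replicate 1. Those between the sites became 1 higher and 2 lower without TMPC replicate 1 or without orthotopic replicate 3. Slc1a4, a transporter of neutral amino acids, was called in all 3 of these comparisons: it rose over TM by 1.96 ± 0.39 in TMP (edgeR, adjusted p = 0.0116) and 1.87 ± 0.39 in TMPC (adjusted p = 0.00923), and was lower in orthotopic tumours by -0.95 ± 0.21 (adjusted p = 0.0224). Glrx, glutaredoxin, had the opposite signs, at -1.91 ± 0.46 (adjusted p = 0.0201), -2.39 ± 0.47 (adjusted p = 0.00705) and 1.55 ± 0.28 (adjusted p = 0.0146). Leaving out single libraries took away the call of Slc1a4 between the sites in 4 of 6 fits and that of Glrx in TMP against TM in 3 of 6 and between the sites in 1 of 6.

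Gpx2 (chr12:76792333-76795554, minus strand) encodes an epithelial peroxidase that uses glutathione to reduce hydrogen peroxide. Per kilobase it had the highest mean of the 10 members, at 227 CPM over the 12 libraries, ahead of Txnrd1 at 85.2 CPM. It stood at 63.9, 0 and 101 CPM in TM, 319, 140 and 402 CPM in TMP, 36, 202 and 554 CPM in subcutaneous TMPC and 524, 292 and 274 CPM in orthotopic TMPC. The 0 in TM replicate 2 was 0 of 16584781 counts, which allows a level of up to 0.207 CPM. All TMP libraries lay above all TM libraries, and the TMPC groups overlapped each other.

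No difference of Gpx2 passed edgeR's test. The log2 fold change was 2.34 ± 1.57 for TMP against TM (adjusted p = 0.287) and 2.22 ± 1.57 for TMPC against TM (adjusted p = 0.293). Without TM replicate 2 these were 1.77 ± 0.96 (adjusted p = 0.189) and 1.66 ± 0.95 (adjusted p = 0.194). Between TMPC and TMP Gpx2 changed by -0.12 ± 1.50, and between the sites by 0.52 ± 0.86 (adjusted p = 0.668). The standard error of Gpx2 was the largest among the members in every comparison, so differences of this size did not stand out from the spread between libraries.

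The 2 lowest Gpx2 libraries were those with the lowest epithelial sums. TM replicate 2 had 0 CPM of Gpx2 at an epithelial sum of 274 CPM, and TMPC replicate 1 had 36 CPM at 1248 CPM. All 10 epithelial markers were detected in both libraries. Set against Epcam, a ratio chosen after the values were seen, Gpx2 stood at 0.139, 0 and 0.19 in TM and 0.503, 0.295 and 0.759 in TMP. The ratio was 0.311, 0.319 and 0.83 in subcutaneous TMPC and 1.13, 0.492 and 0.426 in orthotopic TMPC. Per 1000 CPM of the epithelial sum, Gpx2 stood at 13.3, 0 and 19.6 in TM and 64.7, 42.2 and 87.3 in TMP. On that scale it was 28.8, 68 and 132 in subcutaneous TMPC and 67.4, 33.7 and 51.9 in orthotopic TMPC. By either ratio every TMP and TMPC library lay above every TM library, including TMPC replicate 1, and the TMPC groups overlapped.

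**Figure D3:**
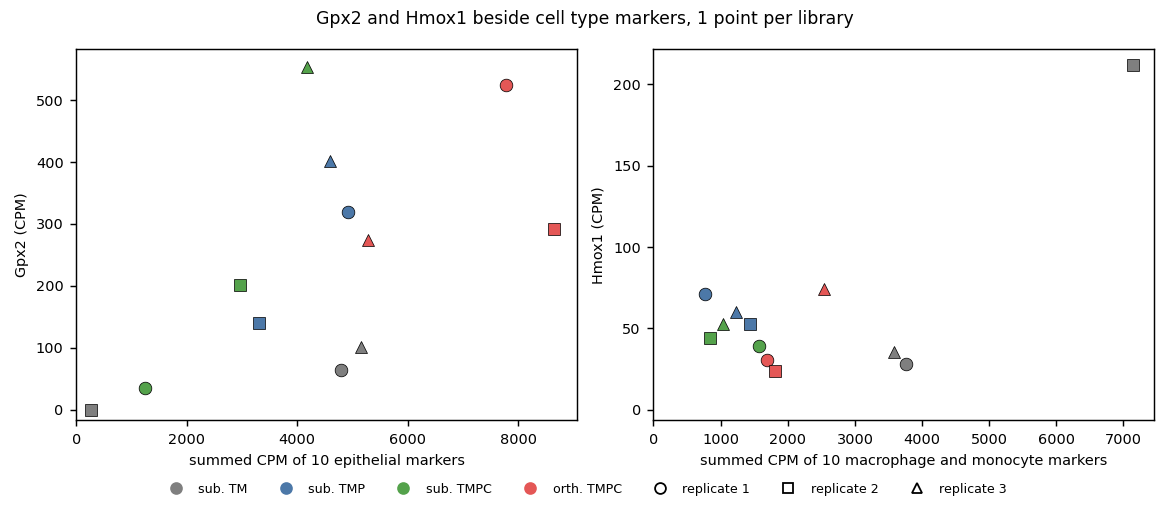
Gpx2 against the summed CPM of 10 epithelial markers (left) and Hmox1 against the summed CPM of 10 macrophage and monocyte markers (right), 1 point per library, both axes linear. The 2 libraries lowest in epithelial markers, at 274 and 1248 CPM, are also lowest in Gpx2. The highest Hmox1 point, 212 CPM, has the highest macrophage sum. TM replicates 1 and 3, next in macrophage sum at 3764 and 3579 CPM, have Hmox1 at 28.2 and 35.5 CPM, below all TMP and subcutaneous TMPC libraries.

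Gpx2 lies inside Fntb on the opposite strand. Fntb itself had 170 to 1072 counts per library against 624 or more of Gpx2 in the libraries where Gpx2 was seen. The pseudogene Gpx2-ps1 had between 0 and 8 counts. The genes whose levels followed Gpx2 most closely were Bdh1 (Pearson r = 0.980), Fhl2 (0.975), Ociad2 (0.968), Rab15 (0.968) and Cadm4 (0.966), as log2(CPM + 1) over the 12 libraries among 12415 genes. The libraries differed in their makeup of cell types, whose part in these r values was not tested. Each of the 5 genes was lowest in TM replicate 2, at 2.28 to 7.87 CPM. Without that library r was 0.853 to 0.954.

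Of 5 other glutathione peroxidases tested, 0 were higher and 1 lower in TMP than in TM. In TMPC against TM 1 was higher and 3 lower, and in orthotopic tumours 3 were higher and 0 lower. These are 20%, 80% and 60% of the list, beside 27.7%, 35.8% and 27.8% of all genes. The 3 higher between the sites became 2 without TMPC replicate 1 and 1 without orthotopic replicate 3, and the 3 lower than TM in TMPC became 2 without TM replicate 2. Calls over all genes in the same fits are given with the members. Gpx3, the peroxidase secreted into plasma, stood at 312, 480 and 448 CPM in TM against 120, 165 and 151 CPM in TMP and 91.6, 125 and 192 CPM in TMPC. It fell by 1.56 on the log2 scale in TMP (SE 0.30, edgeR adjusted p = 0.0101) and by 1.67 in TMPC (SE 0.30, adjusted p = 0.00541), and was higher in orthotopic than in subcutaneous TMPC by 1.41 ± 0.29 (adjusted p = 0.0184). The last call was lost in 3 of 6 fits without 1 library.

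Gpx4, which protects membrane lipids, was higher in TMPC than in TM by 0.63 ± 0.20 (adjusted p = 0.0405). Its value was 0.45 ± 0.20 in TMP against TM (adjusted p = 0.125). Gpx1, the cytosolic form, was lower in TMPC than in TM by -0.74 ± 0.22 (adjusted p = 0.0327) and did not pass in TMP, at -0.45 ± 0.22 (adjusted p = 0.161). Gpx7 and Gpx8, peroxidases of the endoplasmic reticulum, were higher in the orthotopic tumours by 1.58 ± 0.46 (adjusted p = 0.045) and 1.09 ± 0.32 (adjusted p = 0.0457). Gpx7 stood at 9.5, 9.27 and 23.9 CPM there, and its call was lost without any 1 of the 6 libraries, at 0.97 ± 0.31 without orthotopic replicate 3 (adjusted p = 0.0617). Gpx8 lost its call in 5 of 6 such fits, Gpx4 in 3 and Gpx1 in 2.

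Txnrd1 (chr10:82833951-82897712, plus strand) encodes the cytosolic selenoprotein that reduces thioredoxin with NADPH. It stood at 162, 175 and 152 CPM in TM and 385, 313 and 312 CPM in TMP. It stood at 470, 431 and 397 CPM in subcutaneous TMPC and 221, 239 and 247 CPM in orthotopic TMPC. The 4 groups did not overlap one another, and their order was TM, orthotopic TMPC, TMP and subcutaneous TMPC. The TM replicate poor in epithelium, at 175 CPM, did not stand apart for this gene.

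Txnrd1 rose over TM by 0.99 ± 0.15 on the log2 scale in TMP (edgeR, adjusted p = 0.0044) and by 1.34 ± 0.15 in TMPC (adjusted p = 0.000959). Both calls held under all 12 alternatives run. TMPC lay above TMP by 0.36 ± 0.15, which did not pass (adjusted p = 0.9999). Orthotopic TMPC lay below subcutaneous TMPC by 0.81 (log2 fold change -0.81 ± 0.14, adjusted p = 0.0128). That call was lost in 1 of 11 alternatives, without orthotopic replicate 2 (-0.82 ± 0.19, adjusted p = 0.0596). Eid3, which overlaps Txnrd1 on the same strand, had 3 to 28 counts per library, and a long noncoding RNA overlaps on the other strand.

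Among the other thioredoxin reductases, Txnrd2, the mitochondrial form, changed by -0.84 ± 0.32 in TMP against TM (adjusted p = 0.0808), -0.42 ± 0.31 in TMPC against TM (adjusted p = 0.317) and -0.33 ± 0.33 between the sites (adjusted p = 0.479). Txnrd3 had the signs of Txnrd1 in these comparisons, at 0.36 ± 0.45 and 0.52 ± 0.45 against TM, without passing, and was lower in orthotopic tumours by -1.16 ± 0.26 (adjusted p = 0.0226, lost in 3 of 6 fits without 1 library). Differences between the reductases were not tested.

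Of 11 genes of the thioredoxin and peroxiredoxin list, 2 were higher and 1 lower in TMP than in TM, 3 higher and 1 lower in TMPC than in TM, and 2 higher and 3 lower in orthotopic tumours. These are 27.3%, 36.4% and 45.5% of the list, beside 27.7%, 35.8% and 27.8% of all genes. Without TM replicate 2 the 3 higher in TMPC became 5 and the 2 higher in TMP became 3. Between the sites the 2 higher became 1 without TMPC replicate 1 or orthotopic replicate 3. The calls over all genes in these fits, given with the members, moved as well. Txnip, which binds and inhibits thioredoxin, stood at 428, 718 and 509 CPM in TM, 48.2, 70.1 and 93.3 CPM in TMP, 83.5, 59.7 and 54.5 CPM in TMPC and 237, 212 and 155 CPM in orthotopic TMPC. It fell by 3.03 (SE 0.33, adjusted p = 0.00187) and by 3.13 (SE 0.33, adjusted p = 0.000807) against TM, and was higher by 1.68 ± 0.24 in orthotopic tumours (adjusted p = 0.0103), where the call was lost without orthotopic replicate 2 (adjusted p = 0.0511). These signs are the reverse of those of Txnrd1 in each comparison. Prdx2, a peroxiredoxin, was higher than in TM by 1.17 ± 0.23 in TMP (adjusted p = 0.0101) and 1.18 ± 0.23 in TMPC (adjusted p = 0.00672). Txn2, mitochondrial thioredoxin, was higher by 0.48 ± 0.12 (adjusted p = 0.0215) and 0.57 ± 0.12 (adjusted p = 0.00883), and was lower by -0.69 ± 0.12 in orthotopic tumours (adjusted p = 0.014). The calls of Txn2 in TMP and between the sites were each lost in 2 of 6 fits without 1 library.

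Srxn1 (chr2:152105516-152111376, plus strand) encodes sulfiredoxin, which restores overoxidised peroxiredoxins. It stood at 24.1, 43.6 and 28.7 CPM in TM, 35.7, 33.2 and 45.8 CPM in TMP, 54.9, 21.8 and 36 CPM in TMPC and 44.8, 57 and 48.6 CPM in orthotopic TMPC. All groups overlapped in every comparison. The log2 fold changes were 0.19 ± 0.37, 0.16 ± 0.37, -0.03 ± 0.36 and, between the sites, 0.48 ± 0.33, with a lowest adjusted p of 0.303 by edgeR. Per kilobase Srxn1 was the lowest member, at a mean of 14.1 CPM.

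Nqo1 (chr8:107388225-107403206, minus strand) encodes the quinone reductase often used as a readout of Nrf2. It stood at 4.9, 3.66 and 6.27 CPM in TM and 15.5, 5.22 and 15.5 CPM in TMP. It stood at 12.6, 27 and 11.2 CPM in subcutaneous TMPC and 75.1, 152 and 82 CPM in orthotopic TMPC. Every orthotopic library lay above every subcutaneous library, and the highest library was 41.6-fold above the lowest.

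Orthotopic tumours exceeded subcutaneous TMPC tumours in Nqo1 by 2.67 ± 0.45 on the log2 scale (edgeR, adjusted p = 0.0128), a ratio of mean CPM of 6.09. Without orthotopic replicate 2 the value was 2.28 ± 0.42 and missed the threshold (adjusted p = 0.0513). Without orthotopic replicate 3, the library with liver transcripts, it was 2.80 ± 0.48 (adjusted p = 0.013). TMPC exceeded TM by 1.71 ± 0.52 (adjusted p = 0.0336), without overlap. That call was lost in 5 of 12 alternatives, with adjusted p between 0.00505 and 0.112 over all of them. For TMP against TM the value was 1.23 ± 0.51 (adjusted p = 0.104), with TMP replicate 2 at 5.22 CPM inside the TM range.

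The orthotopic libraries also held transcripts of stomach lining. Their 4 gastric pit markers summed to 3461, 5315 and 3340 CPM, against at most 8.13 CPM in each subcutaneous library, and their part in the level of Nqo1 was not tested. The genes closest to Nqo1 over the 12 libraries were Chga (r = 0.900), Clps (0.896), Gkn2 (0.884), Gkn1 (0.880) and Barx1 (0.879). Chga marks endocrine cells, and Gkn1 and Gkn2 are gastrokines of the stomach surface. Gkn1 stood at 1491, 1958 and 1324 CPM in the orthotopic group and at most 0.451 CPM in the subcutaneous libraries. Each of these 5 was highest in the orthotopic group, so the 12 points share that split.

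Nqo2, the paralogue of Nqo1, did not pass in any comparison, with -0.75 ± 0.30 (adjusted p = 0.0958), -0.71 ± 0.30 (adjusted p = 0.0952) and 0.56 ± 0.26 (adjusted p = 0.15). Of 15 genes that reduce or conjugate quinones and aldehydes or export the products, 13 could be tested. In this list 0 were higher and 3 lower in TMP than in TM, and 0 higher and 4 lower in TMPC than in TM. Between the sites 7 were higher and 0 lower in orthotopic tumours. These are 23.1%, 30.8% and 53.8% of those tested, beside 27.7%, 35.8% and 27.8% of all genes. Abcc3, an exporter of conjugates, stood at 131, 31.9 and 109 CPM in TM, 18.6, 21.1 and 23.8 CPM in TMP, 13.8, 10.8 and 10.3 CPM in TMPC and 81.5, 128 and 72.9 CPM in orthotopic TMPC. It fell by 2.15 (SE 0.45, adjusted p = 0.0133) and by 3.02 (SE 0.47, adjusted p = 0.00295) against TM and was higher by 3.08 ± 0.27 in orthotopic tumours (adjusted p = 0.0065). In TM, Nqo1 was at its lowest, while Abcc3 was above its level in TMP and TMPC. Akr1b8, an aldo-keto reductase, and Ugdh, which makes the donor for glucuronidation, were higher in orthotopic tumours by 1.70 ± 0.22 (adjusted p = 0.00909) and 1.02 ± 0.18 (adjusted p = 0.0143). Single libraries took away the call of Abcc3 in TMP in 2 of 6 fits, and that of Ugdh in 2 of 6. Ephx1, an epoxide hydrolase, was lower than in TM by -1.61 ± 0.30 in TMP (adjusted p = 0.00917) and -2.08 ± 0.31 in TMPC (adjusted p = 0.00253).

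Hmox1 (chr8:75093621-75100589, plus strand) encodes inducible haem oxygenase, a Nrf2 target that is also high in macrophages that clear red cells. It stood at 28.2, 212 and 35.5 CPM in TM, 71.2, 52.6 and 60.4 CPM in TMP, 39.3, 43.9 and 52.7 CPM in TMPC and 30.4, 23.6 and 74.4 CPM in orthotopic TMPC. TM replicate 2 was far above all other libraries, while the rest of TM lay below all TMP and subcutaneous TMPC libraries. The log2 fold change was -0.66 ± 0.69 for TMP against TM (edgeR, adjusted p = 0.499) and -1.11 ± 0.70 for TMPC against TM (adjusted p = 0.243).

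Without TM replicate 2 the sign of Hmox1 reversed, to 0.91 ± 0.21 in TMP (adjusted p = 0.0143) and 0.48 ± 0.20 in TMPC (adjusted p = 0.0933). The macrophage and monocyte markers summed to 7142 CPM in that library, 3764 and 3579 in the rest of TM and 763 to 2539 in the other groups, and their part in the level of Hmox1 was not tested. Between the sites Hmox1 changed by -0.02 ± 0.44 (adjusted p = 0.981). Hmox2, the constitutive haem oxygenase, changed by -0.33 ± 0.29, -0.25 ± 0.29 and -0.04 ± 0.17 and passed in none. Of the 6 genes of haem and iron handling 0 passed in any comparison by edgeR with every library in. Over all genes 27.7% passed in TMP against TM, 35.8% in TMPC against TM and 27.8% between the sites. Without TMPC replicate 1, 3 of the 6 were lower in TMPC than in TM and 1 was higher between the sites. Without TM replicate 2, 1 of the 6 was higher in each comparison with TM. Calls over all genes in these fits are given with the members.

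The glutathione transferases, which attach glutathione to reactive molecules, were the longest list and had the most genes past the threshold in each comparison with calls. Of 17 tested, 8 were higher and 1 lower in orthotopic than in subcutaneous TMPC, with a median log2 fold change of 1.31. Of these 1 was higher and 5 lower in TMP against TM (median -1.56), and in TMPC against TM 2 were higher and 6 lower (median -1.40). These counts were 0 and 8, and 2 and 9, without TM replicate 2, while without TMPC replicate 1 those of TMPC against TM were 2 and 4. Over all genes the calls of these fits moved too, by the counts given with the members. With every library in, the share called was 35.3% in TMP against TM, 47.1% in TMPC against TM and 52.9% between the sites. Over all genes tested these shares were 27.7%, 35.8% and 27.8%, and the differences from them were not tested. Of 10 macrophage and monocyte markers, 8 were lower and 0 higher than in TM in both TMP and TMPC. The gastric pit markers moved between the sites by the amounts given for Nqo1, and the part of either in the transferase levels was not tested. Gsta1 stood at 176, 252 and 133 CPM in the orthotopic group and 0.404, 0.163 and 1.02 CPM in subcutaneous TMPC, a difference of 8.49 ± 0.65 (edgeR, adjusted p = 0.00473). Gsta3 was higher in orthotopic tumours by 2.95 ± 0.49 (adjusted p = 0.0123) and lower than in TM by -2.95 ± 0.65 in TMP (adjusted p = 0.0157) and -4.27 ± 0.70 in TMPC (adjusted p = 0.00356). Its calls in TMP and between the sites were each lost in 1 of 6 fits without 1 library. Gstm2 was lower than in TM by -2.49 ± 0.40 in TMP (adjusted p = 0.00544) and -2.70 ± 0.40 in TMPC (adjusted p = 0.00265). Members of the Gsta and Gstm families have near-identical copies, so the split of reads between them is uncertain.

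Idh1, a cytosolic source of NADPH, was lower in TMPC than in TM by -1.32 ± 0.35 (adjusted p = 0.0206) and higher in orthotopic tumours by 1.79 ± 0.23 (adjusted p = 0.00905). By edgeR it was the only gene of 6 for NADPH supply that passed in any of the 4 comparisons with every library in. The share called was 0% in TMP against TM, 16.7% in TMPC against TM and 16.7% between the sites. Over all genes these shares were 27.7%, 35.8% and 27.8%. The lower call of Idh1 against TM was lost in 3 of 6 fits, among them that without TMPC replicate 1 (-1.30 ± 0.43, adjusted p = 0.0582). Sod3, the extracellular superoxide dismutase, was lower in TMPC than in TM by -2.17 ± 0.40 (adjusted p = 0.00543) and higher in orthotopic tumours by 1.27 ± 0.38 (adjusted p = 0.0481). The site call of Sod3 was lost without any 1 of the 6 libraries, at 0.77 ± 0.25 without orthotopic replicate 3 (adjusted p = 0.064), where it stood at 79.2 CPM against 29.4 and 41.9. Cat, catalase, was lower in TMPC than in TM by -1.12 ± 0.35 (adjusted p = 0.0397), a call lost in 5 of 6 fits, without TM replicate 2 at -0.82 ± 0.34 (adjusted p = 0.086).

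**Figure D4:**
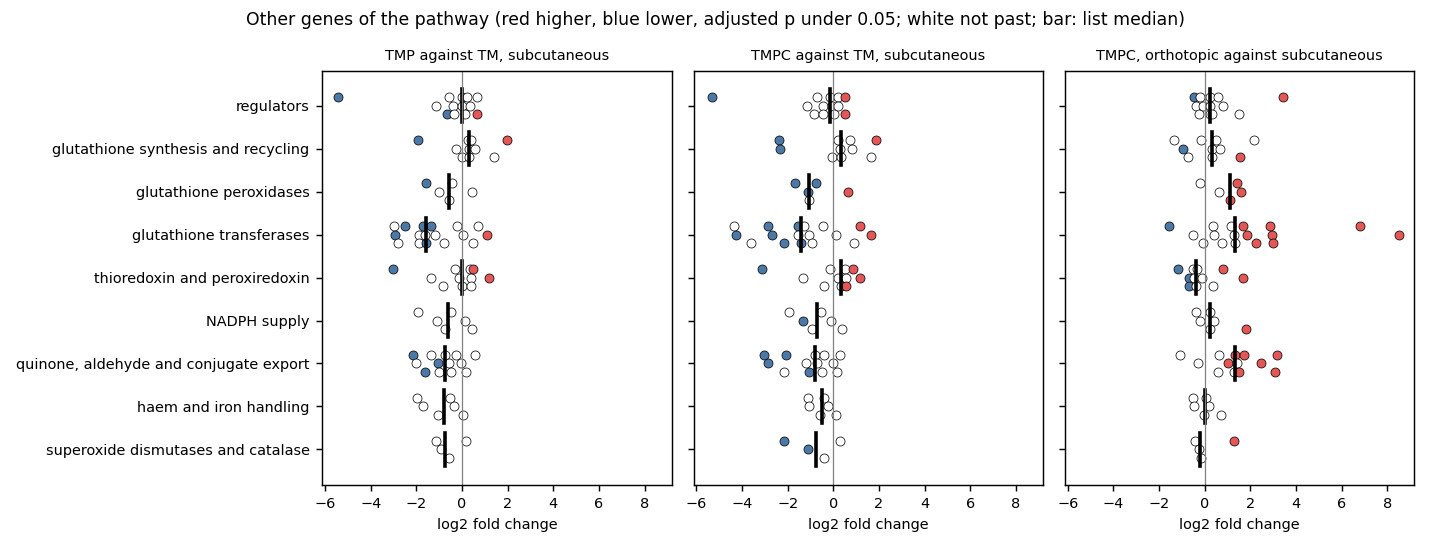
Log2 fold change of the 85 tested pathway genes outside the 10 members, by list, in 3 comparisons; coloured points have an adjusted p under 0.05 by edgeR and the bar is the median of the list. Glutathione transferases lie mostly left of 0 against TM and right of 0 in orthotopic tumours.

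Over all 9 lists, 85 of 87 genes were tested. In TMP against TM 5 were higher and 13 lower, or 21.2% beside 27.7% of all genes, with a median of -0.47. Without TM replicate 2 these counts were 10 and 17. In TMPC against TM 9 were higher and 20 lower (34.1% beside 35.8%), with a median of -0.45, and without TM replicate 2 the counts were 13 and 21. In TMPC against TMP 0 passed. Between the sites 24 were higher and 6 lower (35.3% beside 27.8%), with a median of 0.38, and without orthotopic replicate 3 the counts were 20 and 7. Calls over all genes without TM replicate 2 or orthotopic replicate 3 are given with the members. The median of the 10 members against TM was above 0 where that of these lists was below 0, and this difference between the sets was not tested.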

How the data were processed

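Bulk RNA of 12 libraries in 4 groups was analysed. Groups and replicate numbers came from the sample titles. The 2 single-cell samples were not analysed here. Reads were paired and 150 bp long, per the labels' protocols. STAR 2.6.0, mm10 and DESeq2 are named in the submitters' processing notes. How reads were counted, with which annotation and whether by strand is not given in the sources used here. The deposited files are 2 tables that give each gene's raw count, and, per the file headers, a normalized signal, the count over a library's size factor.

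In the subcutaneous table symbols and counts no longer line up from entry 12291, so symbols were taken by position from the other table, whose shared TMPC counts were equal in all 24421 entries. After realignment the counts matched the deposited signal times the size factor within 0.01 reads for 24419 of 24419 genes, against 14200 as deposited. Total counts were 16584781 to 21107310, so that 3 counts are 0.128 to 0.207 TMM-scaled CPM, and such limits cover counting error only.

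The test was edgeR 4.0.16 under R 4.3.3 (glmQLFit, glmQLFTest, TMM, filterByExpr), with p-values adjusted by Benjamini-Hochberg over all 15277 or 15123 genes tested and called under 0.05. One fit held the 9 subcutaneous libraries and another the 6 TMPC libraries. The steps were tested on simulated counts. Alternatives were DESeq2 1.42.0, its size factors in edgeR, no filter, other sets of libraries, a replicate block and leaving out each replicate. Levels are TMM-scaled CPM, and levels per kilobase use the median protein-coding transcript. Named pathway genes are at most the 3 with the smallest adjusted p per list and comparison, plus close paralogues of the members. The members, lists and rules were chosen with earlier results of these data known. Same-numbered replicates showed no steady pairing, as their deviations correlated between -0.409 and 0.321, with 5 of 18 pairs over 0.1. With 3 libraries a group such correlations cannot settle whether the numbers pair the samples. Gene positions are on mm10, and promoters are from RefSeq (GRCm38.p6).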

Additional observations from a re-analysis of the deposited data

How the results depend on the processing

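Of 48 counts of members past the threshold under an alternative, 37 stayed within 1.5 times the value reported and 11 did not. In TMP against TM the count of 2 ranged from 1 to 4 when single replicates were left out, and in TMPC against TM likewise from 1 to 4. Between the sites it ranged from 0, without orthotopic replicate 2, to 3, was 4 with all 12 libraries in the fit and was 5 by DESeq2. In TMPC against TMP it was 0 throughout, also without TM replicate 2, an alternative chosen after seeing the data.

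With a replicate block the count for TMPC against TM fell from 2 to 1, since Nqo1 stood at 1.76 ± 0.60 (adjusted p = 0.0737). Whether the numbers pair the samples was not settled, so the block is given here only. It took the whole-table calls between the sites from 2118 higher and 2086 lower to 948 and 829, and those of TMP below TM from 2051 to 1286. DESeq2 gave 3347 and 3025 between the sites, and leaving out orthotopic replicate 2 gave 288 and 99. In TMPC against TM, a fit of these groups alone took the lower calls from 2721 to 1580.

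Of 480 member fold changes 429 kept their direction and side of the threshold, 12 came past it, 9 fell below it and 30 changed sign. DESeq2 gave 0.00 for Srxn1 in TMPC against TMP. With single replicates left out, log2 fold changes that changed sign ranged as follows. In TMP against TM, Keap1 ranged from -0.14 to 0.55, Gclc from -0.07 to 0.33 and Hmox1 from -1.03 to 0.91. In TMPC against TM, Keap1 ranged from -0.01 to 0.67, Srxn1 from -0.15 to 0.52 and Hmox1 from -1.47 to 0.48. In TMPC against TMP, Nfe2l2 ranged from -0.39 to 0.22, Gclc from -0.04 to 0.40, Gclm from -0.07 to 0.26, Gpx2 from -1.27 to 0.41 and Srxn1 from -0.39 to 0.28. Between the sites, Gclc ranged from -0.47 to 0.00, Gclm from -0.21 to 0.12, Gpx2 from -0.01 to 1.67 and Hmox1 from -0.69 to 0.27. The cause was not tested. With 3 libraries a group, changes as wide in spread as those of Gpx2 could not be resolved.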
